A study of Pyrus communis with 12 samples.

Results

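Pear flesh picked at the harvest stage H2, 127 days after full bloom, was compared with flesh picked at H4, 147 days after full bloom, across all genes of a count table. The comparison rests on 6 of the 12 RNA-seq libraries of the series, 3 for each stage, chosen by the stage that the sample labels give. All 12 libraries came from fruit of Pyrus communis cv. Abate Fetel that had not been stored, and no group was treated. The stages differed in the harvest week, numbered from week 1 (H1) to week 4 (H4). These numbers do not stand for even weekly steps, since H2 and H4 lay 20 days apart. Fruit of each stage came from the most frequent class of the DA-meter index, a reading of chlorophyll in the skin, so that harvest date and skin class cannot be told apart. RNA was taken from the peeled cortex, and no gene of the table is annotated as a marker of flesh, so the tissue label was not checked against markers. Fewer cells of a type and less RNA per cell cannot be told apart in such bulk tissue. The replicates are labelled as biological, but the labels do not say which fruits or trees went into each, so the p-values measure the spread between these libraries.

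Pear is a climacteric fruit, in which ripening starts with a burst of the gaseous hormone ethylene. Ethylene is made from S-adenosyl methionine in a pair of steps, by ACC synthase (ACS) and ACC oxidase (ACO), and is sensed by membrane receptors such as ERS1, which hold the response back until the hormone binds. Ethylene response factors (ERF) then act on downstream genes, among them enzymes that loosen the pectin of the cell wall and enzymes that turn fatty acids into aroma volatiles. Auxin is mostly known to delay ripening, and Aux/IAA proteins repress auxin response factors.

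The H2 libraries held 7776419 to 8418520 counts and the H4 libraries 9587843 to 10675582, so that every H4 library was deeper than every H2 library. Values are given as CPM, counts divided by the library total and scaled with the TMM factors of edgeR, which were 1.013 to 1.022 in H2 and 0.938 to 0.967 in H4. A gene was tested when it reached 1 CPM in at least 3 of the 12 libraries, which 23155 of 45217 genes did, and 14378 genes had no count in any library. A gene that met this filter through H2 or H4 alone had to differ between them, so that its call is no support. A gene is called when the Benjamini-Hochberg adjusted p of the quasi-likelihood test of edgeR was under 0.05. With every library thinned to the smallest total, 6209 genes were called between H2 and H4.

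Between H2 and H4, 6481 genes were called, which is 28% of the genes tested. Of these, 3398 (14.7% of the genes tested) rose and 3083 (13.3%) fell. At an unadjusted p under 0.05 the number was 8858. The 3 H4 libraries lay entirely above or below the 3 H2 libraries in 98.8% of the called genes and in 45.1% of all genes tested. The split between higher and lower rested on the scaling. It was 52.4% higher with TMM and 35.5% higher when each library was scaled by its total count. The counts of the genes that rose were divided by the library total times its TMM factor. This gave 24.1 to 24.9% in the H2 libraries and 34.5 to 36.9% in the H4 libraries. The genes that fell gave 19.0 to 19.1% in H2 and 13.6 to 14.1% in H4. With TMM factors of 1.013 to 1.022 in H2 and 0.938 to 0.967 in H4, these values are not shares of all counts. They lie below such shares in H2 and above them in H4. The genes were chosen by their change between these same libraries, so that the direction of both changes was given.

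Most of the changes were small. The median log2 fold change was 0.49 among the genes that rose, with the 10th and 90th percentiles at 0.25 and 1.29, and -0.61 among those that fell, with percentiles at -1.75 and -0.27. The median size over all genes tested was 0.24. More than 2-fold differences were more frequent among the genes that fell (789) than among those that rose (516), and so were differences above 4-fold (235 against 166). Above 8-fold there were 97 genes in each direction. Above 16-fold the order turned, with 51 genes higher and 35 lower in H4, and above 32-fold 22 genes were higher and 11 lower. The share of called genes grew with abundance, from 14.5% in the lowest of 4 equal classes of mean CPM to 40.1% in the highest. Falling genes outnumbered rising genes in the lowest class (578 against 259), and rising genes outnumbered falling ones in the highest (1422 against 899).

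**Figure D1:**
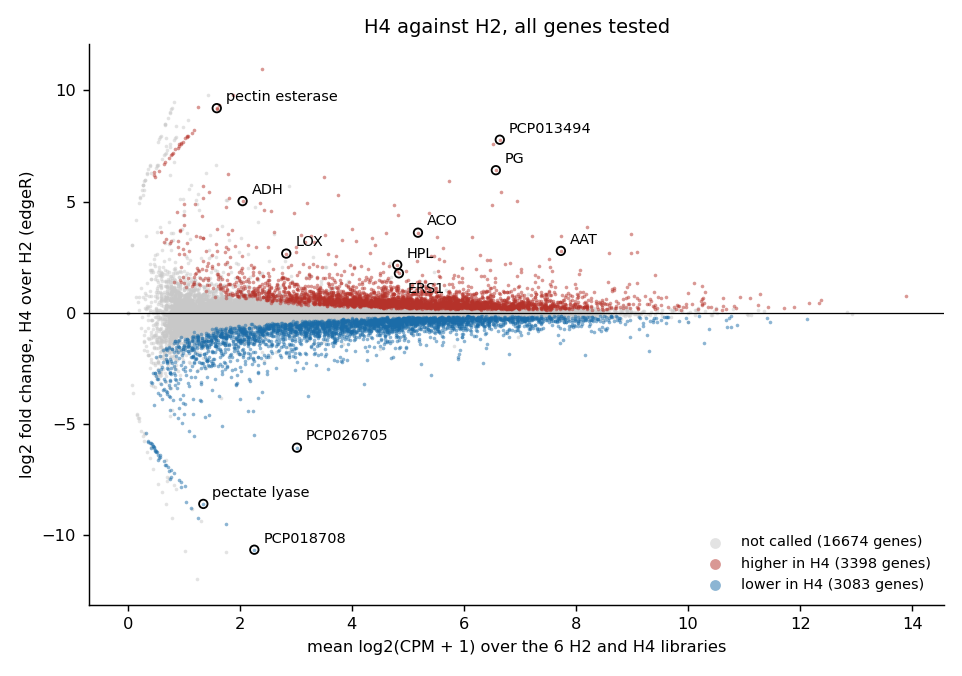
Each dot is 1 of the genes tested, with the mean of log2(CPM + 1) over the 6 libraries on the horizontal axis and the edgeR log2 fold change of H4 over H2 on the vertical axis. Red dots are the 3398 genes that rose, blue dots the 3083 that fell and grey dots genes not called, circles mark genes named in the text, and the fitted values of genes without a count in one stage (the diagonal rows at low abundance) depend on the prior count of the fit.

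Some genes were seen at one of the stages alone. Of the genes that rose, 29 had no count in any H2 library. Against a floor of 3 counts over the 3 H2 libraries, their H4 levels were at least 8.06-fold to at least 234-fold higher, with a median bound of 22.7-fold. Of these 29 genes, 15 also had no count in H1, 7 had none in H3 and 5 had none in either. In the other direction, 40 of the genes that fell had no count in any H4 library, with bounds from 5.79-fold to 220-fold lower and a median of 12.9-fold. These 40 genes had mostly been seen at the other stages, since 5 were at 0 throughout H1 and 5 throughout H3. A softer limit of at most 3 counts in each library of one stage and more in each library of the other gave 44 genes that rose and 73 that fell. Of the 44, 28 were also at or under the limit in every H1 library and 13 in every H3 library.

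The genes of ethylene synthesis were mostly low at H2 and higher at H4. Of 5 such genes named by the study, 4 could be tested, 3 rose and none fell, with a median log2 fold change of 2.54 beside a median size of 0.24 over all genes tested. These genes, like the other groups below, were picked by the study with these libraries at hand, so their direction is not independent evidence. The counts of each group stand beside 14.7% of all genes tested that rose and 13.3% that fell. ACO (PCP011683), the enzyme of the last step, stood at 11.2, 11.2 and 7.83 CPM in the H2 libraries and at 83.0, 145 and 137 CPM in the H4 libraries. No H4 library came near the H2 range, and the log2 fold change was 3.60 ± 0.22 (SE, approximate; edgeR adjusted p = 2.23e-07). In H1 the gene stood at 12 ± 1.5 CPM and in H3 at 11.2 ± 2.16 CPM (SD, n = 3), close to H2. One ACS gene (PCP013122), which makes the ethylene precursor, had 0, 3 and 0 counts in H2 and 42, 42 and 57 in H4. The ratio of the summed counts was 40.6, with a 95% exact interval from 13.6 to 199 that covers counting error only (adjusted p = 0.000255). The gene met the filter only with its H4 libraries, so that it had to be higher there and the p-value is no support. The count of 3 rising genes and the median of 2.54 include this gene. Another ACO gene (PCP009685) rose from 1.40 ± 0.318 to 3.95 ± 1.10 CPM (log2 fold change 1.48 ± 0.42, adjusted p = 0.0196). That call was lost without H2 replicate 1 or 2 or H4 replicate 2 or 3, with log2 fold changes of 1.44, 1.35, 1.40 and 1.33.

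Other genes of ethylene synthesis were not called or not tested. A second ACO gene (PCP022491) had 0.63 ± 0.59 CPM in H2 and 1.11 ± 0.306 in H4, and its libraries overlapped (log2 fold change 0.79 ± 0.77, adjusted p = 0.501). The ACS gene PCP011500 was too low to be tested. It had 3, 0 and 5 counts in H2, 5, 22 and 22 in H4 and none in H1 or H3. Its H4 to H2 ratio was 5.29 (exact 95% interval 2.48 to 12.9, counting error only), and H4 replicate 1 lay within the H2 range.

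Both ethylene receptors passed the test. ERS1 (PCP004450) rose from 15.9, 15.4 and 13.9 CPM in H2 to 37.5, 60.3 and 56.2 CPM in H4. The stages did not overlap, and the log2 fold change was 1.77 ± 0.17 (adjusted p = 8.41e-06). ERS2 (PCP026971) was at 0.963, 2.77 and 3.04 CPM in H2 and at 2.91, 5.59 and 5.83 CPM in H4, so that H4 replicate 1 lay among the H2 libraries. Its log2 fold change of 1.08 ± 0.37 passed narrowly (adjusted p = 0.0439), and the call was lost in 13 of 21 alternatives. Among these were the fits without H2 replicate 1 (0.71) or 2 (1.25), H4 replicate 2 (0.95) or 3 (0.91), H1 replicate 1 (1.08) or 3 (1.07) and any of the H3 libraries (1.08).

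The ethylene response factors, which bind DNA downstream of the receptors, did not follow one course. Of 6 genes 4 could be tested and 3 of these rose, with a median log2 fold change of 1.69. ERF2 (PCP002056) was at 20.6, 19.5 and 18.6 CPM in H2 and at 26, 36.3 and 42.2 CPM in H4 (log2 fold change 0.83 ± 0.17, adjusted p = 0.00289). At the stages outside this comparison the gene was far lower, at 1.54 ± 0.521 CPM in H1 and 2.22 ± 0.356 CPM in H3. The ERF gene PCP011831 rose from 0.602, 1.01 and 1.29 CPM to 4.96, 5.59 and 6.04 CPM (log2 fold change 2.50 ± 0.29, adjusted p = 3.97e-05), and H2 was the lowest of its 4 stages. An AP2/ERF gene (PCP027843) had no count in H1 or H3, 0, 0 and 2 counts in H2 and 17, 24 and 22 in H4, a ratio of 27.2 with an exact interval of 7.22 to 230 (adjusted p = 0.00492). It met the filter through H4 alone, so that its p-value is no support. The count of 3 rising genes and the median of 1.69 include this gene. A second AP2/ERF gene (PCP014930) was at 1.38 ± 0.358 CPM in H2 and 2.54 ± 0.188 in H4 and was not called (log2 fold change 0.88 ± 0.33, adjusted p = 0.0661), but passed with limma-voom (0.89), with the 6 libraries of H2 and H4 alone (0.87) and without H1 replicate 1 (0.88).

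A pair of response factors had the opposite appearance and were too low to be tested. ERF1 (PCP015040) had 14, 12 and 7 counts in H2 and none in any H4 library, at least 12.7-fold lower in H4 against the floor over the stage. The AP2 gene PCP016390 had 0.64 ± 0.256 CPM in H2 and no count in H4, at least 6.18-fold lower. ERF1 was also near 0 elsewhere, at 0.0841 ± 0.146 CPM in H1 and 0.161 ± 0.278 CPM in H3.

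All 4 genes of volatile synthesis rose between H2 and H4, beside 14.7% of all genes tested, with a median log2 fold change of 2.72. AAT (PCP024687), the acyltransferase that forms esters, was the most abundant of them, at 80.3, 82.1 and 81.2 CPM in H2 and 417, 642 and 614 CPM in H4 (log2 fold change 2.78 ± 0.15, adjusted p = 9.75e-08). HPL (PCP012365), a hydroperoxide lyase that cleaves oxidised fatty acids into aldehydes, went from 14.3, 12.5 and 11.5 CPM to 49.2, 61.2 and 59.3 CPM (2.15 ± 0.11, adjusted p = 5.71e-08). LOX (PCP002320), the lipoxygenase that oxidises the fatty acids, went from 1.57, 2.27 and 3.27 CPM to 9.17, 17.0 and 19.0 CPM (2.66 ± 0.34, adjusted p = 8.4e-05). In each of these genes the H4 libraries lay above all H2 libraries, and H4 replicate 1 was the lowest of its stage. ADH (PCP031262), the alcohol dehydrogenase that reduces aldehydes, had 7, 2 and 0 counts in H2 and 84, 151 and 119 in H4, a log2 fold change of 5.02 ± 0.66 (adjusted p = 0.00011). ADH met the filter through H4 alone, so that it had to rise and its p-value is no support. The count of 4 rising genes and the median of 2.72 include ADH.

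**Figure D2:**
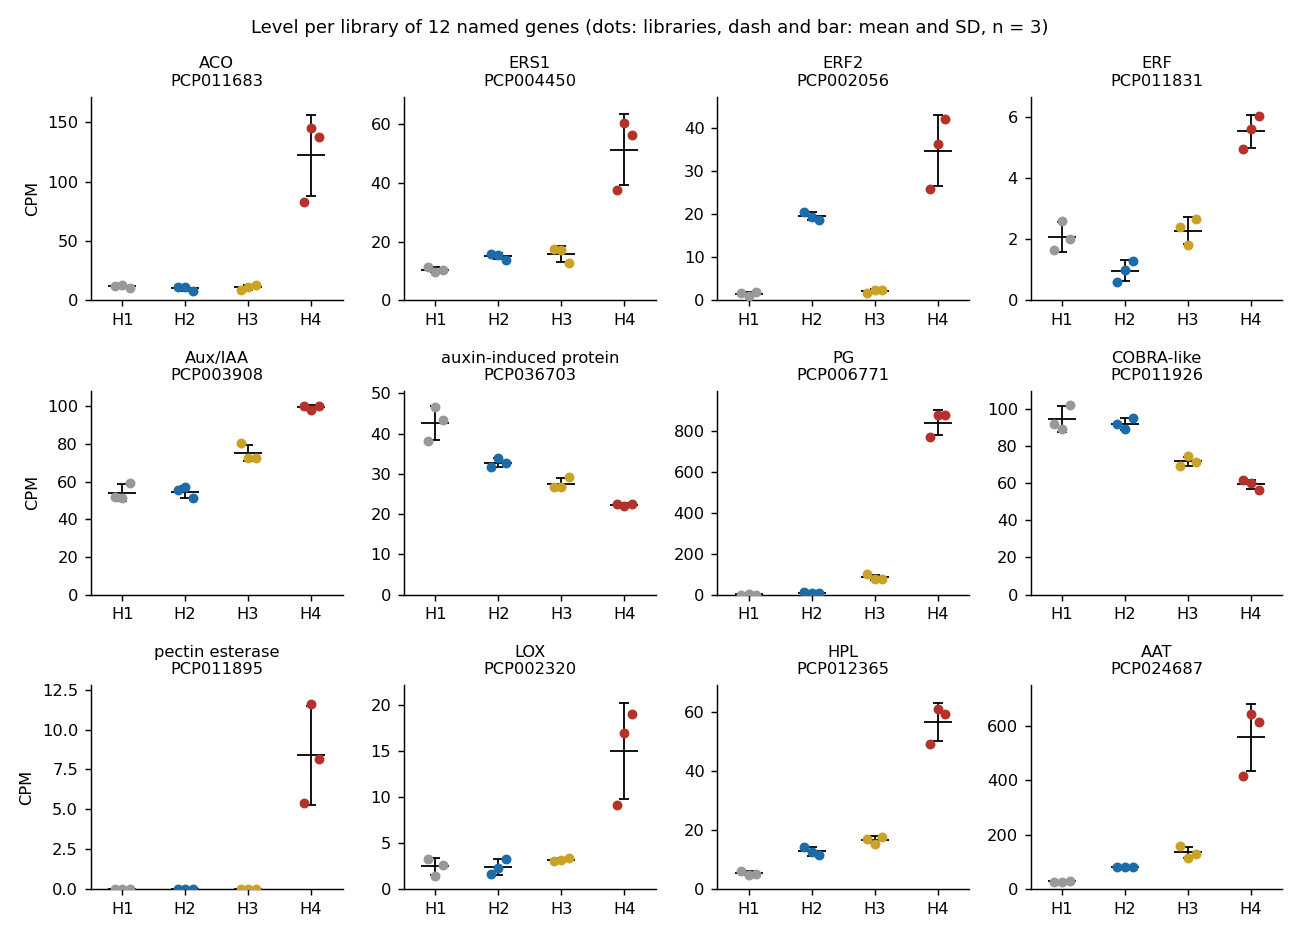
CPM (vertical axes, linear from 0, each with its own range) at the stages H1 to H4 for 12 named genes, with a dot for each library and the mean and SD of 3 libraries. PG stood at 85 ± 11.8 CPM in H3 and 840 ± 62.6 in H4, ACO remained near 11 CPM up to H3, ERF2 was high in H2 and H4 alone, and Aux/IAA and COBRA-like had moved in part by H3.

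The cell wall genes moved in both directions, as did all genes tested, of which 14.7% rose and 13.3% fell. Of 8 genes tested, 3 rose, 3 fell and 2 were not called, and the median log2 fold change was -0.25, also with the genes at 0 counts placed at their bounds. PG (PCP006771), a polygalacturonase that cuts de-esterified pectin, had the largest change of the genes named by the study whose counts were above 0 in each of the 6 libraries. It had 93, 65 and 87 counts in H2 and 7120, 8784 and 8260 in H4, and the log2 fold change was 6.41 ± 0.18 (adjusted p = 5.11e-10). A pectin esterase (PCP011895), an enzyme that removes methyl groups from pectin, had no count in the 9 libraries of H1, H2 and H3 and 50, 116 and 77 counts in H4. Its level in H4 was at least 70-fold higher than in H2 against the floor over the stage (adjusted p = 0.00026). This gene met the filter through H4 alone, so that it had to rise and its p-value is no support. The count of 3 rising genes and the median of -0.25 include the pectin esterase. A pectate lyase (PCP016914) went the other way, with 51, 42 and 44 counts in H2 and none in H4, at least 52.9-fold lower (adjusted p = 0.0408). Its H1 libraries ranged from 0 to 220 counts and its H3 libraries from 2 to 46, and the call was lost whenever any 1 library of H2 or H4 was left out, with fitted log2 fold changes from -8.65 to -8.52, and with limma-voom (-6.74).

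The other cell wall genes differed by less. Pectate lyase3 (PCP026151) was at 162 ± 13.1 CPM in H2 and 189 ± 9.35 in H4 (log2 fold change 0.22 ± 0.07, adjusted p = 0.026). It was not called with total-count scaling (0.13) or without H2 replicate 1 (0.17), H2 replicate 2 (0.21), H4 replicate 1 (0.21) or H4 replicate 2 (0.19). COBRA-like (PCP011926), of a family known for the orientation of cellulose in Arabidopsis, fell from 91.5, 88.9 and 95 CPM to 61.4, 60.1 and 56.5 CPM (-0.63 ± 0.06, adjusted p = 1.38e-05). An expansin-like gene (PCP039813), of a family that loosens walls, fell from 1.97 ± 0.153 to 0.831 ± 0.176 CPM (-1.23 ± 0.36, adjusted p = 0.0217), a call lost with DESeq2 (-1.25) and without H2 replicate 2 (-1.22), H2 replicate 3 (-1.18), H4 replicate 1 (-1.09) or H4 replicate 3 (-1.24). A second one (PCP023195) had a log2 fold change of -2.13 ± 0.75 and just missed the threshold (adjusted p = 0.0505), and it passed in 8 alternatives. These were total-count scaling (-2.22), median-ratio scaling (-2.14), DESeq2 (-2.18), thinned counts (-2.29) and the fits without H2 replicate 1 (-2.44), H1 replicate 2 (-2.13), H3 replicate 2 (-2.13) or H3 replicate 3 (-2.13). The xyloglucan endotransglucosylase hydrolase PCP016523, which cuts and rejoins xyloglucan, was at 41.8 ± 3.42 CPM in H2 and 45.9 ± 2.71 in H4, with overlapping libraries (adjusted p = 0.264).

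Of 10 auxin genes, 9 were tested, 4 rose, 3 fell and 2 did not pass, and the median log2 fold change was 0.70. The shares over all genes tested were 14.7% higher and 13.3% lower. Aux/IAA (PCP003908), a repressor of auxin response, rose from 55.3, 57.1 and 51.2 CPM to 100, 98.0 and 99.9 CPM (0.87 ± 0.07, adjusted p = 1.87e-06). The spread within each stage was a small part of this difference. IAA-like PCP012166 rose from 118 ± 2.53 to 158 ± 5.82 CPM (0.43 ± 0.06, adjusted p = 0.00029), and the auxin-induced gene PCP019182 rose from 23.1 ± 2.16 to 37.5 ± 1.45 CPM (0.70 ± 0.11, adjusted p = 0.000358). The auxin responsive gene PCP012330 had 0, 2 and 0 counts in H2 and 39, 52 and 52 in H4, a ratio of 61.7 with an exact interval of 16.8 to 515 (adjusted p = 7.73e-05). PCP012330 met the filter only with its H4 libraries, so that its p-value is no support. The count of 4 rising genes and the median of 0.70 include PCP012330.

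The genes of this group that fell did so by less than the largest rises. PIN3 (PCP021016), an efflux carrier that moves auxin out of cells, fell from 5.54, 3.27 and 4.56 CPM to 2.48, 2 and 2.23 CPM (-0.99 ± 0.23, adjusted p = 0.00588). The auxin-induced gene PCP036703 fell from 32.8 ± 1.11 to 22.3 ± 0.343 CPM (-0.55 ± 0.08, adjusted p = 0.000169). An auxin response factor (PCP022634) went from 82.5 ± 6.91 to 67.6 ± 6.02 CPM (-0.29 ± 0.08, adjusted p = 0.0209), a call lost without H2 replicate 2 (-0.28), H2 replicate 3 (-0.23) or H4 replicate 3 (-0.21). The auxin-induced gene PCP011951 had 1, 0 and 10 counts in H2 and 11, 5 and 113 in H4, and replicate 3 was the highest in both stages. In H3 the gene had 118, 3 and 4 counts, with replicate 1 the highest, and in H1 it had 3, 3 and 1. It was not called (3.33 ± 1.59, adjusted p = 0.145) except in a fit with replicate numbers as a block on the 6 libraries alone (3.38, adjusted p = 0.00185). PCP022563, another auxin-induced gene, was not called either (1.33 ± 0.54, adjusted p = 0.0914), but it passed with limma-voom (1.36), with the 6 libraries of H2 and H4 alone (1.32) and without H3 replicate 2 (1.33). PCP029646 was too low to be tested, at 0.118 ± 0.117 CPM in H2 and 0.836 ± 0.105 in H4, a ratio of 6.91 with an exact interval of 2.10 to 35.8.

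Of the 6 other transcription factor genes, 1 rose, 1 fell and 4 did not pass, and the median log2 fold change was -0.71. These counts are near the shares over all genes tested, 14.7% higher and 13.3% lower. The MADS gene PCP007024, of a family that includes ripening regulators in tomato, rose from 18.1, 16.1 and 14.3 CPM to 26.6, 23.8 and 25.7 CPM (0.65 ± 0.10, adjusted p = 0.000363). A squamosa binding protein gene (PCP011929) fell from 9.03 ± 0.323 to 5.84 ± 1.10 CPM (-0.63 ± 0.17, adjusted p = 0.0132) and missed the threshold without H4 replicate 2 (-0.49). A second one (PCP036084) stood at 12, 9.82 and 10.5 CPM in H2 and 0.971, 6.59 and 7.84 CPM in H4 and was not called (-1.06 ± 0.42, adjusted p = 0.0807). It passed with DESeq2 (-1.07), limma-voom (-1.49) and thinned counts (-1.10), and without H4 replicate 1 (-0.59) or H4 replicate 3 (-1.49). The remaining genes were APETALA2 (PCP005843) at 0.10 ± 0.08 and the NAC genes PCP007739 and PCP013432 at -1.23 ± 0.57 and -0.78 ± 0.34 on the log2 scale. The gene that the study used as reference in its qPCR (PCP030439) was at 40.9 ± 1.14 CPM in H2 and 37.9 ± 2.30 in H4 and was not called (-0.11 ± 0.06, adjusted p = 0.238), but it passed as lower with total-count scaling (-0.20).

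Among the genes without a name, PCP013494 and PCP009612 had the largest rises in mean log2(CPM + 1), the measure by which they were chosen. PCP013494 went from 4.45, 7.8 and 7.01 CPM to 947, 1655 and 1634 CPM, a log2 fold change of 7.78 ± 0.25. PCP009612 went from 5.18, 5.41 and 8.18 CPM to 843, 1476 and 1329 CPM, a log2 fold change of 7.59 ± 0.23. Both were already above the H2 range in H3, at 21.9 ± 1.08 and 20.5 ± 0.752 CPM. Whether their sequences are alike enough to share reads was not tested. The largest falls on the same scale were those of PCP018708 and PCP026705. PCP026705 went from 44.3, 38.1 and 39.5 CPM to 0.539, 0.599 and 0.636 CPM (-6.07 ± 0.16). PCP018708 had 140, 281 and 148 counts in H2 and none in H4, at least 220-fold lower, but its H3 libraries had 0, 0 and 178 counts, and DESeq2 gave it no adjusted p.

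A sorting of its changed genes into 11 clusters, made by the study on these same libraries, describes the comparison further without being independent of it. Among all genes tested, 14.7% rose and 13.3% fell. Of cluster 2, whose mean log2(CPM + 1) was 0.12, 0.10 and 0.27 in H1, H2 and H3 and 1.62 in H4, 38 of 62 genes were tested, 35 rose and none fell. Of cluster 9, with 0.92, 1.12, 1.56 and 2.04 in the same order, 83 of 186 genes rose and 2 fell. Cluster 3, which the study also described as rising over the stages, stood at 0.19, 0.95, 0.49 and 1.15. Of its 35 tested genes, 5 rose and 2 fell, so that its share of rising genes was close to that of all genes tested. Cluster 4 had 10 rising and 0 falling genes of 24 tested. Clusters 7, 8, 10 and 11 held falling genes and none that rose, with 69 of 109, 205 of 344, 16 of 19 and 4 of 12 tested genes lower in H4. Cluster 10 stood out by its course, 0.21 in H1, 1.30 in H2, 0.14 in H3 and 0.11 in H4, and 19 of its 45 genes reached the level needed for the test. Genes that pass this filter through H2 or H4 alone had to differ between them, so that these counts support nothing. The large clusters 1, 5 and 6 held genes of both directions, 556 higher and 737 lower of 1969, 1093 and 692 of 2689, and 1342 and 1039 of 3352.

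The study had also made lists of genes correlated with fruit firmness. The lists were made over stages that include H2 and H4, so that their direction in this comparison is in part given by the way they were made. Among all genes tested, 14.7% were higher and 13.3% lower in H4. Of 553 tested genes correlated positively with penetrometer firmness, 482 were lower in H4 and none was higher, with a median log2 fold change of -0.88. Of 490 correlated negatively, 212 were higher and 6 lower, with a median of 0.28. Of 217 tested genes correlated positively with the maximum force of a texture analyser, 149 were lower in H4 and none was higher, with a median of -0.62. Of 139 correlated negatively with it, 16 were higher and 3 lower, with a median of 0.10, so that the share of higher genes on that list was below the 14.7% of all genes tested.

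The change from H2 to H4 was then set beside the change from H1 to H3, which spans the same number of days, 20, and shares no library with it. The intervals overlap in time, since both include the period from H2 to H3. Calls shared by both can therefore describe that same period. Between H1 and H3, 2772 genes (12%) were called, 1573 (6.79%) higher and 1199 (5.18%) lower in H3. Of the 3398 genes that rose from H2 to H4, 913 (26.9%) also rose from H1 to H3, 77 (2.27%) fell and 2408 (70.9%) were not called. Of the 3083 genes that fell, 693 (22.5%) also fell from H1 to H3, 110 (3.57%) rose and 2280 (74.0%) were not called. Seen from the other side, 58.0% of the genes that rose from H1 to H3 and 57.8% of those that fell had the same call from H2 to H4. The genes that rose from H2 to H4 had a median log2 fold change of 0.15 from H1 to H3, and those that fell -0.16.

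The difference between both changes was tested in the same fit. The period from H2 to H3 cancels out of this difference, which equals the change from H3 to H4 minus that from H1 to H2. The difference passed for 2462 genes (10.6% of the genes tested), with the change from H2 to H4 more positive in 1195 (5.16%) and more negative in 1267 (5.47%). Among the genes that rose from H2 to H4 the difference passed in the direction of the rise for 991 and against it for 24, and among those that fell in the direction of the fall for 1015 and against it for 15. These counts share the H2 and H4 libraries with the calls that define the lists. A gene for which the difference was not called is not thereby shown to change equally in both intervals.

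Of the 27 genes named by the study that were called from H2 to H4, 15 had the same call from H1 to H3, 12 had none and none had the opposite one. Among all genes called from H2 to H4, 26.9% of the rising and 22.5% of the falling ones had the same call from H1 to H3. The difference of the changes passed for 6 of the 27 named genes. Among all called genes it passed in the direction of the change for 991 of 3398 rising and 1015 of 3083 falling ones. Against that direction it passed for 24 and 15. ACO, LOX, ERS1 and ERF PCP011831 rose more from H2 to H4 than from H1 to H3, by 3.71 (adjusted p = 3.1e-05), 2.27 (0.0115), 1.18 (0.0102) and 2.38 (0.00244) on the log2 scale. None of these 4 was called from H1 to H3, and with limma-voom the difference for LOX (2.13) did not pass. Aux/IAA rose in both intervals and by 0.39 more in the later one (adjusted p = 0.0232), a call lost with total-count scaling (0.29) and without H2 replicate 3 (0.35), H3 replicate 2 (0.36) or H3 replicate 3 (0.37). IAA-like PCP012166 also rose in both, but by 0.40 less from H2 to H4 (-0.40, adjusted p = 0.0131). PG belonged to the genes whose difference was not called. Its log2 fold change was 6.09 from H1 to H3 and 6.41 from H2 to H4, starting from 1.18 ± 0.854 CPM in H1 and from 9.85 ± 1.53 CPM in H2 (difference 0.32, adjusted p = 0.715). For AAT and HPL the differences were 0.53 (adjusted p = 0.161) and 0.48 (adjusted p = 0.114), and both passed without H4 replicate 1 (0.70 and 0.57).

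**Figure D3:**
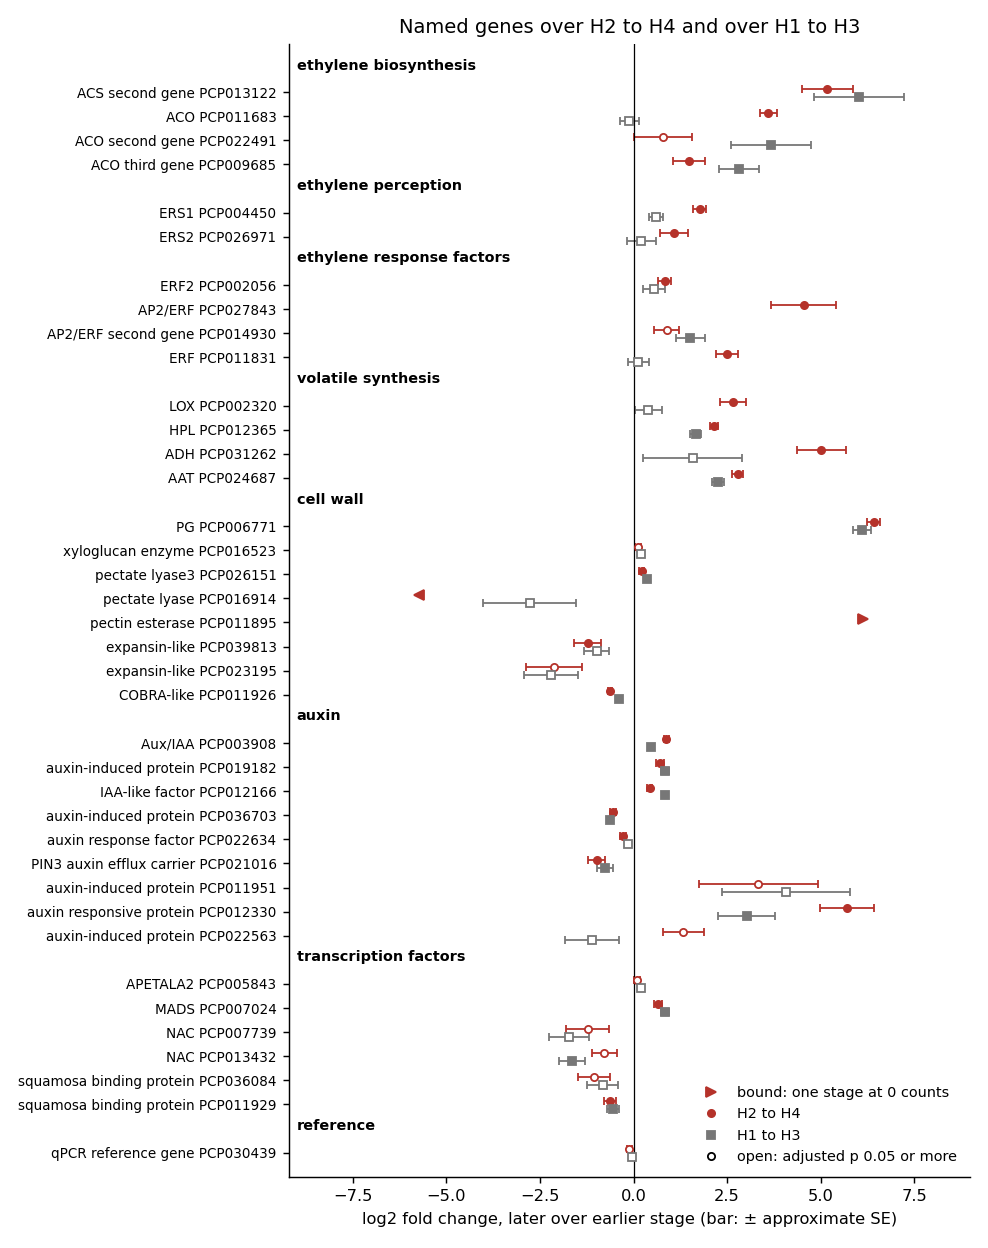
edgeR log2 fold change (horizontal axis, with bars for the approximate SE) of the named genes tested, by group, for H2 to H4 (red circles) and H1 to H3 (grey squares), with open symbols where the adjusted p was 0.05 or more and triangles for lower bounds where a stage had no count. ACO stood at 3.60 for H2 to H4 and -0.11 for H1 to H3, whereas PG stood at 6.41 and 6.09; no square is drawn where H1 and H3 both had no count.

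To place the other stages, each library was projected on the difference between H2 and H4 in log2(CPM + 1) over all genes tested, with 0 at H2 and 1 at H4. The axis, its origin and its end came from different libraries. The H1 libraries lay at -0.052, 0.068 and -0.080 and the H3 libraries at 0.364, 0.369 and 0.308. So H1 stood at the level of H2 on this axis, at -0.021 ± 0.079, and H3 at 0.347 ± 0.034 (SD, n = 3). The groups did not overlap, and the exact two-sided permutation test of 3 against 3 libraries gave p = 0.1, the smallest it can give. The H2 libraries, each placed by the others, lay at 0.027, -0.033 and 0.005, whereas H4 replicate 1 lay at 0.884 and the other H4 libraries at 1.055 and 1.076. In 60.6% of the rising genes and 44.5% of the falling ones, H4 replicate 1 was the H4 library nearest to H2. Without this library 5864 genes were called.

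The projection was repeated with the genes of each direction and with those that differed more than 4-fold between the H2 and H4 libraries that made the axis. For rising genes H1 lay at -0.061 ± 0.1 and H3 at 0.33 ± 0.053, and for rises above 4-fold at -0.064 ± 0.122 and 0.312 ± 0.089. For falling genes H1 lay at 0.029 ± 0.052 and H3 at 0.368 ± 0.066. The falls above 4-fold had another course, with H1 at 0.359 ± 0.09 and H3 at 0.532 ± 0.133, so that H1 lay between H2 and H4 and the H1 and H3 libraries overlapped (exact permutation p = 0.2). In the other 3 classes the permutation p was 0.1.

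**Figure D4:**
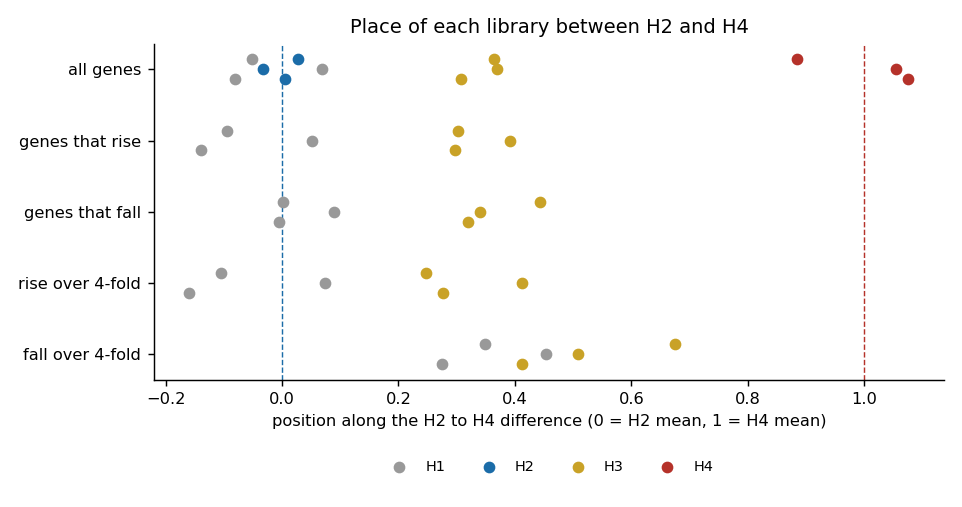
Position of each library along the H2 to H4 difference (horizontal axis, no unit, 0 at H2 and 1 at H4) for all genes tested and for 4 classes of genes (rows), with a dot for each library; H2 and H4 dots are drawn for all genes alone. H1 lay around 0 in every row except that of falls above 4-fold, where it lay around 0.359, and H3 lay around 0.347 for all genes.

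Genes called in opposite directions on either side of H2 made up a small part of the comparison. Between H1 and H2, 1646 genes (7.11%) were called, 912 (3.94%) higher and 734 (3.17%) lower in H2. A gene was said to turn at H2 when it was called in one direction from H1 to H2 and in the other from H2 to H4, which 465 genes did, 7.17% of the 6481. Of the genes that rose from H2 to H4, 190 (5.59%) had fallen from H1 to H2, and of the genes that fell, 275 (8.92%) had risen. Both comparisons use the same H2 libraries, so that an error in H2 enters them with opposite signs. Without H2 replicate 1, 2 or 3 the number of turning genes was 299, 290 and 281. Of the other 6016 genes (92.8%), 5484 had no call from H1 to H2 and 532 had the same call as from H2 to H4. A gene without a call from H1 to H2 is not thereby shown to keep its direction. Among the genes with such a call, 465 turned and 532 did not. The definition does not use H3, so a reversal seen at H3 alone is not counted.

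The turning genes were more frequent among large changes. A turn and a large difference from H4 both select for an extreme level in the same H2 libraries. The increase with the size of the change is therefore in part given by the choice. They made up 9.27% of the called genes that differed more than 2-fold between H2 and H4, 13.7% of the 401 above 4-fold and 17% of those above 8-fold. The median size of the log2 change from H2 to H4 was 0.60 in turning genes and 0.54 in the others. From H1 to H4, where 7996 genes (34.5%) were called, 298 of the 465 turning genes had no call, 119 were called in the direction of H2 to H4 and 48 in that of H1 to H2. In the 190 genes with a low at H2, the median difference from H2 was 0.46 in H1, 0.30 in H3 and 0.49 in H4 on the log2(CPM + 1) scale. In the 275 genes with a high at H2 it was -0.51, -0.32 and -0.64. PCP026705, the unnamed gene with the large fall, was of this kind, with 16 ± 1.2 CPM in H1, 40.6 ± 3.24 in H2, 7.53 ± 1.06 in H3 and 0.591 ± 0.0489 in H4.

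**Figure D5:**
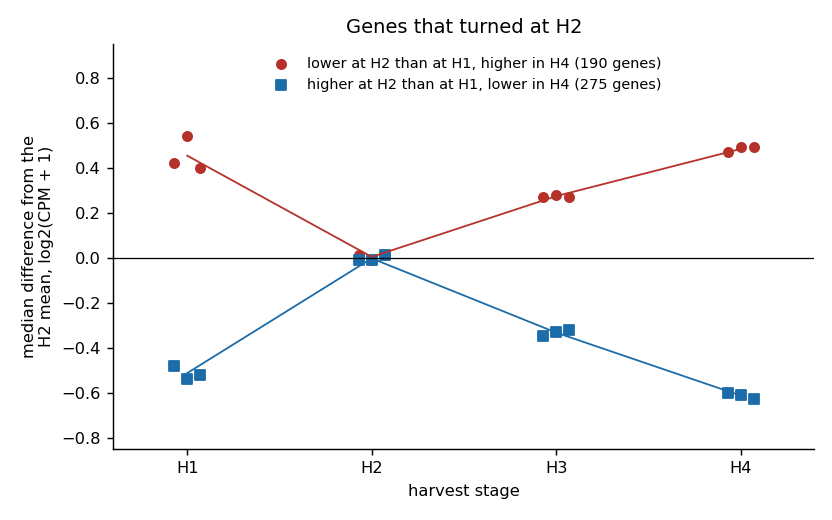
Median difference from the H2 mean in log2(CPM + 1) (vertical axis) at the 4 stages for the 190 genes with a low and the 275 genes with a high at H2, with a symbol for each library and a line through the stage means. The H1, H2 and H4 levels follow from the choice of the genes, and the distance of H3 from H2 does so in part, since the genes were chosen for an extreme H2.

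By this definition, none of the 27 called genes named by the study turned at H2, beside 7.17% of all called genes. Whether the named genes differ from that share was not tested. Of the 27, 10 had the same call from H1 to H2, among them PG, AAT, HPL and ERF2, and 17 had no call. Among all 6481 called genes, 532 had the same call and 5484 had none. ERF2 did reverse at H2 when H3 is considered, which the definition leaves out. Its log2 change was 3.68 from H1 to H2 and -3.13 from H2 to H3 (edgeR adjusted p = 3.48e-06 and 1.18e-05). ERF PCP011831, the nearest to a turn under the definition, had a log2 change of -1.10 from H1 to H2 with an adjusted p of 0.0504.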

How the data were processed

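Total RNA of peeled pear flesh from 4 harvest stages was sequenced in 12 libraries. The table deposited by the authors carries FPKM in its name, but every value is a whole number and the library totals differ, so the values were read as raw counts for each gene in each library. The authors aligned trimmed reads with HISAT2, quantified them with StringTie and used DESeq2, with versions, genome build and the step to counts not given in the sources used here. The labels and the published methods name different library kits and sequencers. The libraries did not keep the strand, so overlapping and antisense genes, and near-identical copies, cannot be separated. The 4 stage columns, a signal that the authors made as the mean of the counts of each stage, were not used, and 0 other per-library columns were left out.

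Counts were fitted in R 4.3.3 with edgeR 4.0.16 (TMM, quasi-likelihood, all 12 libraries, one term per stage), with a threshold of 0.05 on Benjamini-Hochberg adjusted p-values. The biological coefficient of variation was 13.0%. Standard errors are approximate and were derived from the F statistic and the fold change. DESeq2 1.42.0 and limma 3.58.1 served as alternatives. The rest was done in Python 3.11.15 (scipy 1.17.1, matplotlib 3.10.9, pandas 2.3.3, numpy 2.4.6). A stage without counts was set to a floor of 3 counts over its 3 libraries, and ratios with few counts carry a 95% Clopper-Pearson interval that covers counting error only. The projection used a pseudocount of 1 CPM. The fits were tested on simulated data with 200 genes changed 2-fold, drawn from the more abundant genes. The edgeR fit found 80.5% of them from H2 to H4, with 10 false calls. For the difference between the changes it found 66.5%, with 5 false calls. From H2 to H4, DESeq2 found 88.0% with 23 false calls and edgeR on the 6 libraries alone 80.5% with 22.

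Replicate numbers were not treated as pairs. No library pair of a stage agreed within sampling noise (chi-square per degree of freedom 2.5 to 8.05), so none was counted as a duplicate. Named genes are those with an identifier in the study's text or primer table, and, of unnamed genes, the 2 that rose most and the 2 that fell most in mean log2(CPM + 1), taken from called genes without overlap of libraries at a mean of 1 CPM or above. The members and lists were chosen with earlier results of these data known. Lists by annotated function had been planned, but 0 gene IDs and 0 of the accessions listed for 6539 gene IDs matched the RefSeq table, so they were not made. The alternatives were other filters, scalings, tools, pseudocounts, thinned counts, fewer libraries and a replicate block.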

Additional observations from a re-analysis of the deposited data

Results flagged for a closer look

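The changes from H2 to H4 and from H1 to H3 differed by the test of the difference for 2462 of 23155 genes (edgeR, adjusted p under 0.05). Of the named genes, the difference was 3.71 for ACO (PCP011683), 1.18 for ERS1 (PCP004450), 2.38 for ERF PCP011831, 2.27 for LOX (PCP002320), 0.39 for Aux/IAA (PCP003908) and -0.40 for IAA-like PCP012166 on the log2 scale. Of the unnamed genes, it was 3.93 for PCP013494, 3.88 for PCP009612 and -4.98 for PCP026705, which had been chosen for their change from H2 to H4. Outlying libraries were not searched for within stages, since each stage has 3 libraries.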

How the results depend on the processing

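The count of called genes stayed within 1.5 times of 6481 in all 22 alternatives, from 5095 without H4 replicate 3 to 7172 without H1 replicate 2. It was 6082 without a filter on low counts, 5958 with a minimum of 5 CPM, 6784 with total-count scaling, 6439 with median-ratio scaling, 5492 with DESeq2, 6533 with limma-voom, 6899 with the 6 libraries alone and 6352 with the replicate block, of which 6071 were shared with the same direction and 0 had the opposite one. The replicate numbers showed no pairing, since the deviations of same-numbered H2 and H4 libraries correlated at -0.03, -0.04 and -0.03 and no library correlated best with its own number. With the 6 libraries alone and the replicate block, an alternative chosen after seeing the data, it was 5939, and there PCP022634 (-0.30), PCP026151 (0.22) and PCP039813 (-1.25) lost their call and PCP011951 (3.38) gained one. The share of higher genes was 35.5% with total-count scaling. Leaving out 1 library gave 281 to 441 turning genes, 1771 to 2641 genes for the difference from H1 to H3 and 1328 to 1735 genes called in both intervals. H3 lay at 0.312 with a pseudocount of 5 CPM. Without separate libraries for axis and origin, H1 lay at 0.087 and the distance from H1 to H3 was 0.287 (exact permutation p = 0.1), since noise in H2 then enters both. Of 27 called genes named by the study, 7 lost their call in at least 1 alternative, 5 of 10 genes not called passed in at least 1, and 0 reversed. Depth limits genes with few counts, since 3 counts in a library correspond to 0.299 to 0.378 CPM in H2 and H4. Where no reason is given, the cause was not tested.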
